A study of Mus musculus with 8 samples.

Results

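The 10 genes described here code for the transcription factor NRF2 (Nfe2l2), for its inhibitor KEAP1 and for 8 of the proteins through which NRF2 is known to act on heme, glutathione, thioredoxin and NADPH. They were taken by gene symbol from the deposited table of reads per gene, which lists 50578 genes, and all 10 were found there and passed the filter on low counts. The rule that picks them uses their symbols and no measured value, though the list was drawn up with earlier results of these data known. RNA-seq had been performed on mouse embryonic fibroblasts (MEFs), wild type and isolated from E13.5 embryos of the C57BL/6J strain, which were used at low passage. The 4 groups, of 2 libraries each, were MEFs without a compound, which served as controls, and MEFs given Carbidopa, LY-364747 or CHIR-99021 at 10 µM. The medium was renewed every 3 days with the compound present, and the length of treatment behind these libraries is not given in the sources used here. Carbidopa is an inhibitor of aromatic amino acid decarboxylase, CHIR-99021 is an inhibitor of the kinase GSK3, and LY-364747 is the spelling of the labels for a compound that the study's methods write as LY-364947, an inhibitor of the TGF-beta receptor. The question of the study was whether such compounds move fibroblasts towards hepatocytes. Nothing states that the libraries of a group came from separate cultures, so p-values measure the spread between these libraries, which may be technical.

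NRF2 is a transcription factor that is made continuously and destroyed as fast. KEAP1 carries it to the ubiquitin ligase built on CUL3, and oxidants or electrophiles that modify KEAP1 let NRF2 accumulate. A further route to its destruction needs phosphorylation by GSK3, after which the ligase subunit beta-TrCP (Btrc) recognises it. NRF2 that escapes binds DNA together with small MAF proteins at antioxidant response elements, a position for which the repressor BACH1 competes. RNA-seq measures the transcripts only, so the amount, location and activity of the NRF2 protein were not measured here.

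Total counts ranged from 15039566 to 20504338 reads per library. The labels name the treated cells hepatic-like, but 10 hepatocyte markers (Alb, Hnf4a, Apob and others) summed to 0.451 to 1.18 CPM (reads of a gene scaled to the same library size in every library) over all 8 libraries and none had enough reads to be tested. Among them Alb had 2 and 0 reads in MEFs and 5 to 10 in the treated libraries, and Hnf4a had 1 and 2 reads in MEFs and 6 to 10 in the treated libraries, so both were higher in all 6, while Apob had 10 and 2 reads in MEFs and 0 to 6 in the others. The study rested its claim on quantitative PCR, in which Alb and Hnf4a rose, and on cell shape. It also used staining for fat and glycogen and the clustering of expression profiles. The summed level of 10 fibroblast markers was 34745 to 35081 CPM in MEFs and 8123 to 11703 CPM in the treated libraries. Fn1 alone made up 19249 and 18667 CPM of it in MEFs. By edgeR 8 of the 10 were lower and 1 was higher with each compound (adjusted p under 0.05). Of all genes tested 17.2% to 20.1% were lower and 13.7% to 18.7% higher. Pdgfra went the other way, with 238 and 263 CPM in MEFs and 315 to 393 CPM in the treated libraries. The 17 macrophage markers summed to 1332 to 1372 CPM in MEFs against 99.7 to 418 CPM in the treated libraries. In bulk RNA fewer cells of a type and less RNA per cell cannot be told apart. The CPM are scaled by the trimmed mean of M-values (TMM). Scaling by total counts alone instead raised the median log2 change of all genes against MEFs by 0.25 for Carbidopa, 0.23 for LY-364747 and 0.22 for CHIR-99021. It also raised the share of higher genes among all genes called from 47.8% to 73.9%, from 44.3% to 70.0% and from 48.2% to 69.8%, so changes are given relative to the TMM scale.

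The promoters were searched for the core of the antioxidant response element, TGACNNNGC, and for its variant TGAGNNNGC, on both strands of the 300 bases around each start site in RefSeq (GRCm38.p6, the assembly of the mm10 build). Of all 32851 promoters of that length 12.4% held the first, 17.6% the second and 27.8% at least one of them. A window was found for 7 of the 10 genes (Nfe2l2, Keap1, Gclm, Txnrd1, Srxn1, Slc7a11 and G6pdx), with 9 windows in all since Txnrd1 has several start sites. The 4 upstream stretches that follow are shown because these genes differ in their response below: Srxn1 and Txnrd1 were higher with each compound, Gclm passed no test, and Slc7a11 was lower with each. Each is read 5′ to 3′ on the strand of the gene, and capitals mark a match on either strand. They lie at chr2:152105274-152105513 (plus strand, Srxn1), chr10:82858956-82859195 (plus strand, Txnrd1), chr3:122245307-122245546 (plus strand, Gclm) and chr3:50443624-50443863 (minus strand, Slc7a11).
Srxn1: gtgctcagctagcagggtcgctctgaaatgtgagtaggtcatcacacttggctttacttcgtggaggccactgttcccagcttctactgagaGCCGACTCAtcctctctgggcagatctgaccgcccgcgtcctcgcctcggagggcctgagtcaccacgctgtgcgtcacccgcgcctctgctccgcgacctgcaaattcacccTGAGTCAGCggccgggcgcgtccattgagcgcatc
Txnrd1: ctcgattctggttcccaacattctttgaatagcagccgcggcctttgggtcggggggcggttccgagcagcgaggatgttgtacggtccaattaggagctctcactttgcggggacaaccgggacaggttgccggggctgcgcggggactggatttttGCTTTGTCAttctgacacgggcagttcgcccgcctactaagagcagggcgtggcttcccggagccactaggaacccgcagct
Gclm: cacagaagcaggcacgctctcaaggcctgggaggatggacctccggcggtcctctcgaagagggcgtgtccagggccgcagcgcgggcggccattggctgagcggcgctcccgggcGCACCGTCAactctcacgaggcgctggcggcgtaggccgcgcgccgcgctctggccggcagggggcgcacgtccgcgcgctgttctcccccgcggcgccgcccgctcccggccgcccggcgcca
Slc7a11: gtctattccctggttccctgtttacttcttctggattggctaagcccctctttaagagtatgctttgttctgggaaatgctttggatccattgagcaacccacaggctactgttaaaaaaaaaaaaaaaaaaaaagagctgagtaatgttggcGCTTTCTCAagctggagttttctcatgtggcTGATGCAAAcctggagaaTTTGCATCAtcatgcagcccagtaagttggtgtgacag

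Srxn1 held TGAGTCAGC 45 bases before its start site and TGAGTCGGC, read on the opposite strand, at 158 bases, with TGACCTAGC on the opposite strand after the start. Txnrd1 held TGACAAAGC at 92 bases in 1 of its windows, on the opposite strand, and Gclm held TGACGGTGC at 134 bases, also on the opposite strand. Slc7a11 held TGAGAAAGC at 97 bases on the opposite strand. It also held 2 copies of TGATGCAAA, a form of the element bound by ATF4. They lay at 66 bases and, on the opposite strand, at 48 bases. TGATGCAAA was present in 0.271% of all promoters. The Nfe2l2 window held TGACTCCGC at 240 bases, and the G6pdx window held TGACTGAGC at 57 bases on the opposite strand. The Keap1 window held none of the 3 motifs. The letters therefore occur in windows of genes that rose, of Gclm, which was not called, and of Slc7a11, which fell. A match is a description of the letters and does not show a bound site.

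Compared with MEFs, Nfe2l2, Gclc, Txnrd1, Srxn1 and Gsr were higher with each of the 3 compounds, Slc7a11 was lower with each, and Gclm was called with none. Keap1 was higher with Carbidopa and CHIR-99021, Hmox1 was higher with CHIR-99021 alone among the 3 tests, and G6pdx was slightly lower with CHIR-99021. With Carbidopa 6 of the 10 genes were higher and 1 was lower, where 18.0% of the 15154 genes tested were higher and 19.7% lower (edgeR quasi-likelihood test, Benjamini-Hochberg adjusted p under 0.05). With LY-364747 5 were higher and 1 was lower, beside 13.7% and 17.2% of all genes. With CHIR-99021 7 were higher and 2 were lower, beside 18.7% and 20.1%. The median log2 change of the 10 genes was 0.58, 0.44 and 0.55 for the 3 compounds in that order, against 0.04, 0.03 and 0.04 over all genes tested. The 3 comparisons share the MEF libraries, so they are not independent of each other.

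**Figure D1:**
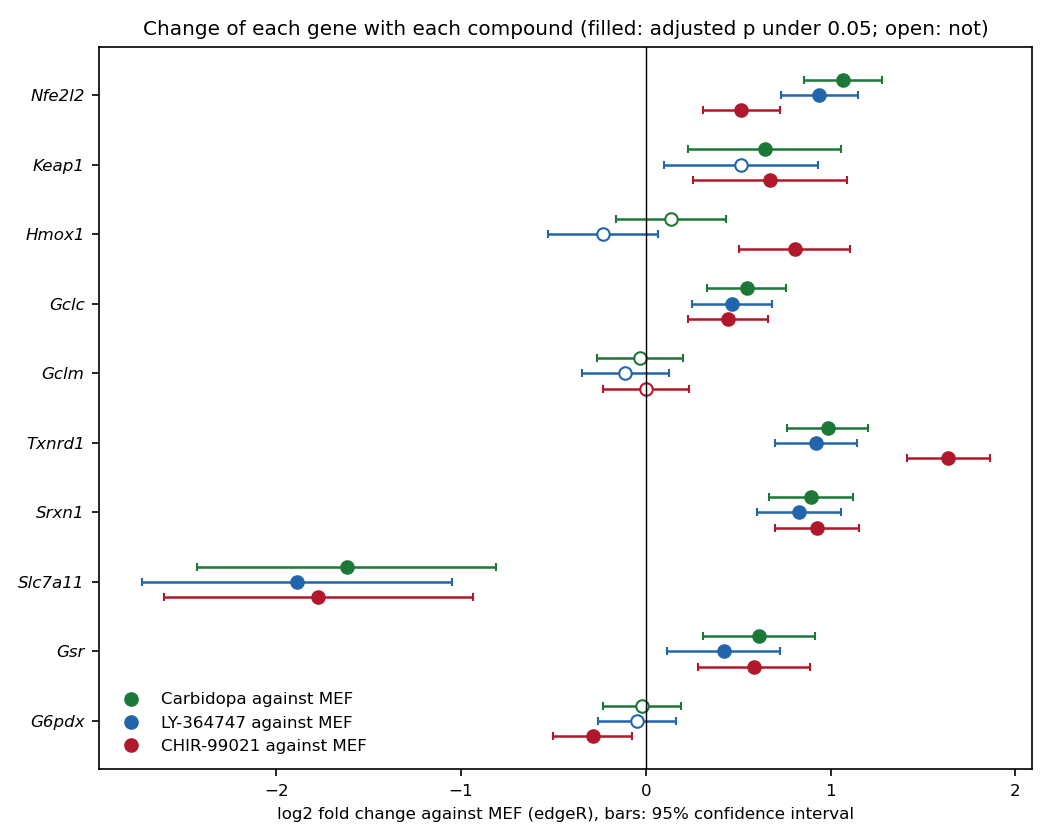
The horizontal axis gives the log2 fold change of each of the 10 genes (vertical axis) against MEFs, with 95% confidence intervals, in green for Carbidopa, blue for LY-364747 and red for CHIR-99021, and filled points passed the adjusted p of 0.05. Txnrd1 lies farthest to the right with CHIR-99021 at 1.64, Gclm stays around 0 with each compound, and Slc7a11 lies to the left at -1.62, -1.89 and -1.77.

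Nfe2l2, on chromosome 2 (75675513 to 75704641, minus strand, mm10), had 152 and 157 CPM in the MEF libraries, 337 and 311 CPM with Carbidopa, 302 and 291 CPM with LY-364747, and 220 and 222 CPM with CHIR-99021. Every treated library lay above both MEF libraries, and the CHIR-99021 libraries lay between MEFs and the other two compounds without overlap. The means were 155 ± 3.94 (SD, n = 2), 324 ± 18.8, 297 ± 8.34 and 221 ± 1.48 CPM. By edgeR the log2 change against MEFs was 1.07 (SE 0.09, adjusted p = 1.19e-05) with Carbidopa, 0.94 (SE 0.09, adjusted p = 3.1e-05) with LY-364747 and 0.52 (SE 0.09, adjusted p = 0.00169) with CHIR-99021. The gene of NRF2 thus stood 2.10 times as high as in MEFs with Carbidopa and 1.43 times as high with CHIR-99021. Leaving out any 1 library ended none of these calls.

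Keap1, on chromosome 9 (21229730 to 21239361, minus strand), had the largest SE of the genes that rose. It had 36.9 and 30.9 CPM in MEFs, 60.3 and 45.5 CPM with Carbidopa, 44.1 and 52.8 CPM with LY-364747, and 62.4 and 45.4 CPM with CHIR-99021. All treated libraries lay above both MEF libraries, while the treated groups overlapped each other. The log2 change was 0.64 (SE 0.19, adjusted p = 0.021 in edgeR) with Carbidopa, 0.67 (SE 0.19, adjusted p = 0.0168) with CHIR-99021 and 0.52 (SE 0.19, adjusted p = 0.0604) with LY-364747, the last of which was not called. The Carbidopa call was lost without MEF replicate 1 (adjusted p = 0.0531 in edgeR), without MEF replicate 2 (0.163) and without Carbidopa replicate 1 (0.0895). The CHIR-99021 call was lost without MEF replicate 2 (adjusted p = 0.141 in edgeR) and without CHIR-99021 replicate 1 (0.173). Keap1 overlaps Gm16754 on the opposite strand over 510 exon bases, and Gm16754 had 4 to 31 reads per library against 480 to 1283 for Keap1.

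Among the other regulators of NRF2, 14 genes were followed and all could be tested. Carbidopa raised 3 and lowered 3, LY-364747 raised 2 and lowered 2, and CHIR-99021 raised 4 and lowered 2 of them. These shares lay near those of all genes, which were 18.0% higher and 19.7% lower with Carbidopa, 13.7% and 17.2% with LY-364747, and 18.7% and 20.1% with CHIR-99021, except that 4 of 14 with CHIR-99021 was above and 2 of 14 lower with it was below. Bach2, a relative of the repressor BACH1, was higher with each compound, by 1.59, 1.92 and 2.10 on the log2 scale (adjusted p = 0.000442, 0.000123 and 6.04e-05, edgeR). Nfe2l1, a transcription factor of the same family as NRF2, was lower with each, at -0.61, -0.56 and -0.54 (adjusted p = 0.00144, 0.00262 and 0.00301). Btrc, the substrate receptor named above, was higher by 0.53, 0.38 and 0.50 (adjusted p = 0.00712, 0.0404 and 0.00987). These 3 genes were called in the same direction with all compounds. The share of all genes called in this way was not counted, and the 3 comparisons share the MEF libraries.

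Bach1 had a log2 change of -0.38 with Carbidopa (adjusted p = 0.0192, edgeR) and -0.42 with CHIR-99021 (0.011), both called, and -0.21 with LY-364747 (0.169), which was not. Cul3, the scaffold of the KEAP1 ligase, was called only with LY-364747, at -0.31 (adjusted p = 0.0267), beside -0.25 (0.0577) and -0.22 (0.0799) with Carbidopa and CHIR-99021. Gsk3b, which codes for a form of the kinase that CHIR-99021 inhibits, was lower with Carbidopa at -0.52 (adjusted p = 0.0126) and had -0.32 (0.0826) with CHIR-99021 itself. Sqstm1, which codes for p62, a protein that sequesters KEAP1, was higher with CHIR-99021 by 0.83 (adjusted p = 0.000965, edgeR). Sqstm1 had 408 and 370 CPM in MEFs and 747 and 636 CPM with CHIR-99021. The values were 607 and 476 CPM with Carbidopa and 439 and 494 CPM with LY-364747. Every treated library thus lay above both MEF libraries.

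Hmox1 (chromosome 8, 75093621 to 75100589, plus strand) codes for heme oxygenase 1, which opens the heme ring and releases iron. It had 233 and 232 CPM in MEFs, 289 and 223 CPM with Carbidopa, 192 and 205 CPM with LY-364747, and 441 and 373 CPM with CHIR-99021. The CHIR-99021 libraries lay above all others, the LY-364747 libraries lay below both MEF libraries, and the Carbidopa libraries fell on either side of MEFs. With CHIR-99021 the log2 change was 0.81 (SE 0.13, adjusted p = 0.000978, edgeR), or 1.75-fold. With Carbidopa it was 0.14 (95% interval -0.16 to 0.44, adjusted p = 0.442) and with LY-364747 -0.23 (-0.53 to 0.07, adjusted p = 0.227). The Carbidopa value became a call without Carbidopa replicate 2, at 0.31 (adjusted p = 0.0211, edgeR), and under scaling by total counts, at 0.39 (0.04). The LY-364747 value became a call when only the MEF and LY-364747 libraries were fitted, at -0.23 (adjusted p = 0.011).

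Macrophages are known for strong Hmox1 expression, and their markers moved with the treatments. Of the 17 macrophage markers 15 could be tested. Of these 14 were lower with Carbidopa, 14 with LY-364747 and 15 with CHIR-99021, and none was higher. Of all genes tested 19.7%, 17.2% and 20.1% were lower and 18.0%, 13.7% and 18.7% were higher. Cd163 had at most 1 read in any library. The summed level was 395 to 418 CPM with Carbidopa, 296 to 305 CPM with LY-364747 and 99.7 to 106 CPM with CHIR-99021. CHIR-99021 therefore had the lowest macrophage sum and the highest Hmox1. The part of these cells in the values of Hmox1 was not tested with any compound.

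**Figure D2:**
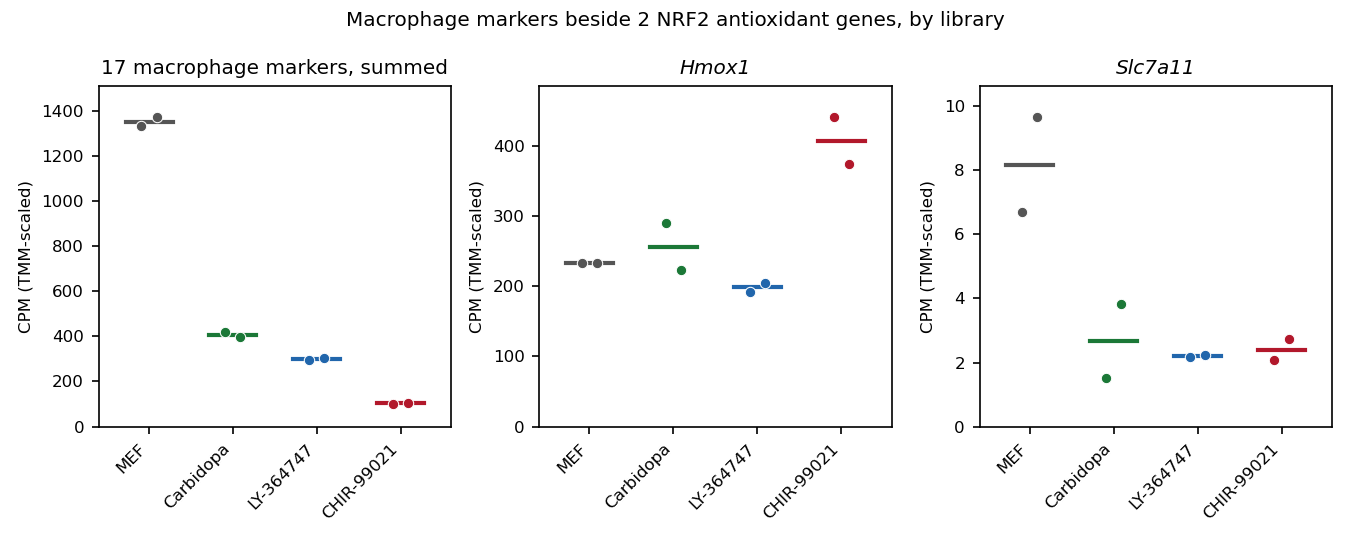
Each panel gives TMM-scaled CPM on the vertical axis for the 4 groups, with 1 point per library and a line at the group mean: the sum of 17 macrophage markers, Hmox1 and Slc7a11. The macrophage sum is highest in MEFs (1332 and 1372 CPM) and lowest with CHIR-99021, where Hmox1 reaches 441 and 373 CPM, and Slc7a11 is highest in MEFs.

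Of 8 further genes of heme and iron handling that were tested, 3 were higher and 0 lower with Carbidopa, 1 was higher and 1 lower with LY-364747, and 1 was higher and 2 were lower with CHIR-99021. Apart from the 3 higher and 0 lower with Carbidopa, beside 18.0% and 19.7% of all genes, these shares are near those of all genes (13.7% and 17.2% with LY-364747, 18.7% and 20.1% with CHIR-99021). Hmox2, the constitutive heme oxygenase, was higher by 0.68 with Carbidopa (adjusted p = 0.00589, edgeR) and by 0.66 with CHIR-99021 (0.00633). Slc40a1, the iron exporter ferroportin, was higher by 0.94 with Carbidopa (adjusted p = 0.000344) and 0.98 with LY-364747 (0.000269), and had a log2 change of -0.07 (0.716) with CHIR-99021. Fech, the last enzyme of heme synthesis, was lower at -0.31 with LY-364747 (adjusted p = 0.0266) and -0.44 with CHIR-99021 (0.00376). Blvra, which reduces the biliverdin that heme oxygenase makes, was lower with CHIR-99021 at -0.73 (adjusted p = 0.00819). Alas1, the first enzyme of heme synthesis, was not called (-0.02, -0.06 and -0.07), and Blvrb, the other biliverdin reductase gene, was higher with Carbidopa by 0.88 (adjusted p = 0.0208, edgeR) and had 0.45 (0.222) and 0.56 (0.112) with LY-364747 and CHIR-99021. Trf, which codes for the iron carrier transferrin, was higher with Carbidopa by 0.80 (adjusted p = 0.0231, edgeR).

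Glutathione synthesis starts with glutamate cysteine ligase, which is made of a catalytic subunit (Gclc) and a modifier subunit (Gclm). Gclc (chromosome 9, 77754535 to 77794485, plus strand) had 46.9 and 45.8 CPM in MEFs, 67.3 and 67.9 CPM with Carbidopa, 66.6 and 61.5 CPM with LY-364747, and 64.1 and 62.0 CPM with CHIR-99021. All treated libraries lay above both MEF libraries. Relative to MEFs the log2 change was 0.55 (SE 0.10, adjusted p = 0.00152, edgeR), 0.47 (SE 0.10, 0.00419) and 0.45 (SE 0.10, 0.00477) in that order. The LY-364747 call was lost without MEF replicate 2 (adjusted p = 0.0588, edgeR) and without LY-364747 replicate 1 (0.0558), and the CHIR-99021 call without MEF replicate 2 (0.0626).

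Gclm (chromosome 3, 122245557 to 122270732, plus strand) had 70.1 and 73.6 CPM in MEFs, 68.9 and 71.8 CPM with Carbidopa, 64.6 and 68.4 CPM with LY-364747, and 66.8 and 77.0 CPM with CHIR-99021. The Carbidopa and CHIR-99021 libraries overlapped those of MEFs, and the LY-364747 libraries lay just below them. The log2 change was -0.03 (95% interval -0.26 to 0.20), -0.11 (-0.34 to 0.12) and 0.00 (-0.23 to 0.24), with adjusted p of 0.839, 0.469 and 0.99 in edgeR. The intervals of the 3 comparisons together reached from -0.34 to 0.24. Gm17494 overlaps Gclm on the opposite strand with 31 to 60 reads per library, against 943 to 1540 for Gclm.

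The number of Gclc reads per Gclm read within a library, a ratio that no scaling can change, was 0.669 and 0.622 in MEFs. It was 0.977 and 0.946 with Carbidopa, 1.03 and 0.900 with LY-364747, and 0.959 and 0.806 with CHIR-99021. All 6 treated libraries lay above both MEF libraries. This ratio and the ratios to Nfe2l2 given further on were chosen after the values had been seen and carry no test. Per kilobase of exon Gclc stood at 12.4 and 12.2 CPM and Gclm at 11.1 and 11.7 CPM in MEFs, against 17.9 and 18.0 CPM for Gclc and 10.9 and 11.4 CPM for Gclm with Carbidopa.

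Slc7a11 (chromosome 3, 49892526 to 50443614, minus strand) codes for xCT, the transporter that brings in cystine, from which the cysteine of glutathione is made. It had the fewest reads of the 10 genes, with 90 and 150 reads in the MEF libraries, 32 and 82 in those of Carbidopa, 39 and 42 in those of LY-364747, and 36 and 47 in those of CHIR-99021. This is 6.69 and 9.67 CPM in MEFs, 1.51 and 3.82 CPM with Carbidopa, 2.19 and 2.23 CPM with LY-364747, and 2.07 and 2.73 CPM with CHIR-99021. All treated libraries lay below both MEF libraries, and the Carbidopa libraries spanned the range of the other treated ones. On the log2 scale Slc7a11 changed by -1.62 (SE 0.36, adjusted p = 0.0062, edgeR), -1.89 (SE 0.38, 0.00339) and -1.77 (SE 0.38, 0.00413), which is 3.07-fold, 3.70-fold and 3.42-fold lower. With Carbidopa the value was -2.44 without Carbidopa replicate 2 and -1.33 without MEF replicate 2, where the call was lost (adjusted p = 0.0692, edgeR). The macrophage markers, as given above, were also highest in MEFs, and their part in the fall of Slc7a11 was not tested.

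Slc3a2, the partner subunit that carries xCT to the membrane, was not called with any compound (log2 change 0.11, -0.24 and 0.23, adjusted p = 0.518, 0.199 and 0.175, edgeR). Slc7a11 is also a known target of ATF4, the transcription factor of amino acid shortage, and 14 genes of that response were followed. Of these 3 were higher and 4 lower with Carbidopa, 3 higher and 6 lower with LY-364747, and 2 higher and 8 lower with CHIR-99021. The shares that were lower exceeded those of all genes (19.7%, 17.2% and 20.1%), while those that were higher lay near them (18.0%, 13.7% and 18.7%) or, with LY-364747, somewhat above. Atf4 itself had log2 changes of 0.33, 0.01 and 0.27 (adjusted p = 0.0521, 0.953 and 0.105) and was not called.

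The genes of the ATF4 list that fell with all compounds included Chac1, which codes for an enzyme that breaks down glutathione, at -1.15, -1.48 and -1.33 (adjusted p = 0.000609, 0.000134 and 0.000262, edgeR), and Atf3, a stress-induced transcription factor, at -1.18, -1.50 and -2.11 (0.00178, 0.000503 and 6.42e-05). Slc7a5, a transporter of large neutral amino acids, was lower at -0.78, -0.77 and -1.06 (adjusted p = 0.00072, 0.000812 and 8.53e-05). Ddit3, which codes for the stress factor CHOP, rose with all compounds, by 1.35, 0.78 and 0.90 (adjusted p = 0.000535, 0.0147 and 0.00566). Vldlr, a lipoprotein receptor gene, rose by 1.11 with Carbidopa and 1.26 with LY-364747 (adjusted p = 0.000127 and 5.32e-05, edgeR) and had 0.28 (0.125) with CHIR-99021. Nupr1, a stress-induced regulator, was lower at -0.64, -1.30 and -1.27 (adjusted p = 0.00741, 9.86e-05 and 0.000108). The list therefore moved in both directions.

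Txnrd1 (chromosome 10, 82833951 to 82897712, plus strand) codes for the cytosolic thioredoxin reductase, which keeps thioredoxin reduced with electrons from NADPH. It had 157 and 154 CPM in MEFs, 316 and 298 CPM with Carbidopa, 279 and 310 CPM with LY-364747, and 498 and 467 CPM with CHIR-99021. The Carbidopa and LY-364747 libraries overlapped, and both CHIR-99021 libraries lay far above them. The log2 change against MEFs was 0.98 (SE 0.10, adjusted p = 3.14e-05, edgeR), 0.92 (SE 0.10, 5.21e-05) and 1.64 (SE 0.10, 8.05e-07), or 1.98-fold, 1.90-fold and 3.11-fold. This was the greatest rise of any of the 10 genes with CHIR-99021. Txnrd2 and Txnrd3, the other thioredoxin reductase genes, were not called (Txnrd2 0.09, -0.24 and 0.41, Txnrd3 -0.10, -0.60 and -0.25 on the log2 scale), nor was Txn1, the thioredoxin that Txnrd1 serves (-0.05, -0.25 and -0.22).

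Srxn1 (chromosome 2, 152105516 to 152111376, plus strand) codes for sulfiredoxin, which repairs over-oxidised peroxiredoxins. It had 64.0 and 59.4 CPM in MEFs, 115 and 115 CPM with Carbidopa, 104 and 115 CPM with LY-364747, and 122 and 113 CPM with CHIR-99021. The treated libraries formed 1 overlapping range well above MEFs. Against MEFs the log2 change was 0.90 (SE 0.10, adjusted p = 7.54e-05, edgeR), 0.83 (SE 0.10, 0.000134) and 0.93 (SE 0.10, 5.7e-05). Leaving out any 1 library ended no call of Txnrd1 or Srxn1 against MEFs.

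Gsr (chromosome 8, 33652523 to 33698163, plus strand) codes for glutathione reductase, which regenerates glutathione from its oxidised form. It had 26.2 and 31.5 CPM in MEFs, 48.2 and 40.0 CPM with Carbidopa, 40.6 and 36.8 CPM with LY-364747, and 41.2 and 45.4 CPM with CHIR-99021. All treated libraries lay above MEFs, and the treated groups lay close to each other. Gsr differed from MEFs by a log2 change of 0.61 (SE 0.14, adjusted p = 0.00594, edgeR) with Carbidopa, 0.42 (SE 0.14, 0.0399) with LY-364747 and 0.58 (SE 0.14, 0.00701) with CHIR-99021. Without MEF replicate 1 none of the 3 was called (adjusted p = 0.0761, 0.285 and 0.0821, edgeR). The LY-364747 call was also lost without MEF replicate 2 (adjusted p = 0.0566, edgeR), without LY-364747 replicate 1 (0.208) and without LY-364747 replicate 2 (0.0885), and the CHIR-99021 call without CHIR-99021 replicate 2 (0.0509).

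G6pdx (chromosome X, 74409483 to 74429194, minus strand) codes for glucose-6-phosphate dehydrogenase, the enzyme that opens the pentose phosphate pathway and yields NADPH. It had 71.8 and 68.8 CPM in MEFs, 70.2 and 68.3 CPM with Carbidopa, 66.6 and 69.4 CPM with LY-364747, and 59.6 and 55.7 CPM with CHIR-99021. The Carbidopa and LY-364747 libraries overlapped MEFs, and the CHIR-99021 libraries lay below all others. The log2 change was -0.02 (95% interval -0.23 to 0.19) with Carbidopa, -0.05 (-0.26 to 0.16) with LY-364747 and -0.29 (-0.50 to -0.07, adjusted p = 0.0378, edgeR) with CHIR-99021. The last call was lost without MEF replicate 1 (adjusted p = 0.209, edgeR), MEF replicate 2 (0.122), CHIR-99021 replicate 1 (0.102) or CHIR-99021 replicate 2 (0.208), and under total-count scaling the value was -0.07 (0.58). G6pdx shares 8.96% of its words of 75 bases with Ikbkg, which overlaps it on the opposite strand with 781 to 1052 reads per library. How reads of the shared stretch were counted depends on the strand setting, which is not given, so the G6pdx counts may be affected.

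**Figure D3:**
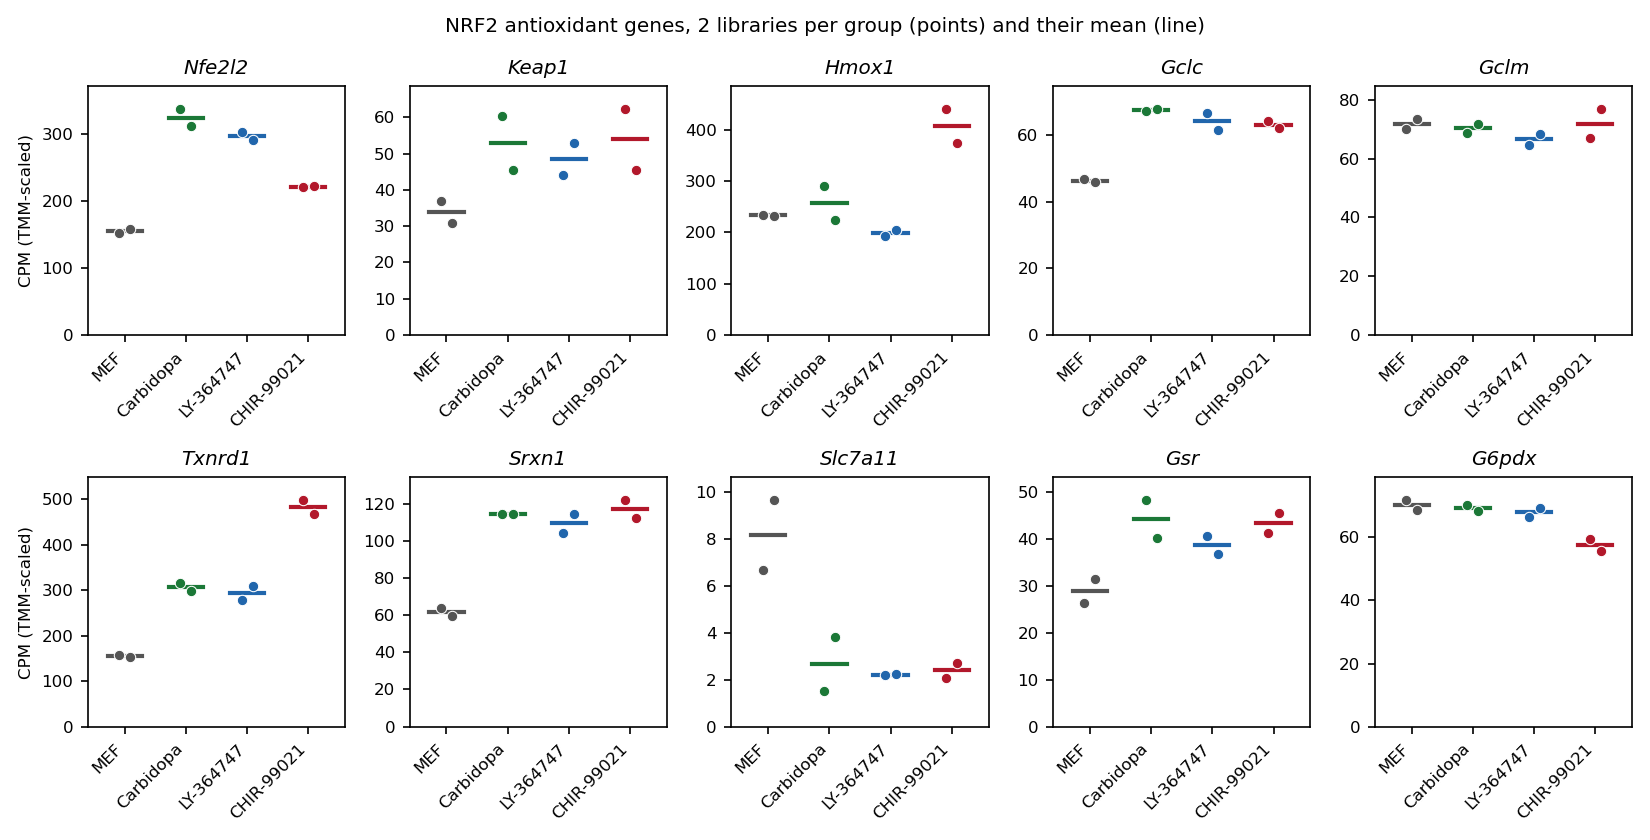
Each of the 10 panels gives the TMM-scaled CPM of 1 gene on a vertical axis that starts at 0, with 1 point per library and a line at the mean of the 2 libraries in each of the 4 groups. Nfe2l2, Keap1, Gclc, Txnrd1, Srxn1 and Gsr lie above MEFs in all 6 treated libraries. Gclm stays between 64.6 and 77.0 CPM, and Hmox1 is high in the CHIR-99021 libraries.

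Per kilobase of exon the order of the genes in MEFs was led by Hmox1 (133 and 133 CPM per kb), followed by Nfe2l2 (40.0 and 41.5). G6pdx (23.3 and 22.3), Srxn1 (22.7 and 21.1) and Txnrd1 (22.1 and 21.7) came next, of which Srxn1 overlapped both others while G6pdx lay just above Txnrd1. Gclc (12.4 and 12.2), Gclm (11.1 and 11.7) and Gsr (9.52 and 11.4) followed, of which the last pair overlapped, then Keap1 (7.85 and 6.59) and Slc7a11 (0.480 and 0.695). With CHIR-99021 the order was Hmox1 (252 and 213 CPM per kb), Txnrd1 (70.3 and 65.9), Nfe2l2 (58.0 and 58.6) and Srxn1 (43.3 and 39.9), so Txnrd1 passed Nfe2l2 in this group. With Carbidopa Nfe2l2 (88.9 and 81.9) stayed above Txnrd1 (44.6 and 42.1). Slc7a11 remained the lowest gene in every library.

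The compounds were then compared with each other. Between LY-364747 and Carbidopa none of the 10 genes was called by edgeR at the adjusted threshold, as was the case for nearly all genes (0.0132% called in either direction, 2 genes, with 1367 at an unadjusted p under 0.05). DESeq2 called 0 of the 10 and 16 of all genes. For 8 of the 10 genes the estimate lay between -0.19 and -0.03 on the log2 scale. The exceptions were Hmox1 at -0.37 (95% interval -0.67 to -0.07, adjusted p = 0.519) and Slc7a11 at -0.27 (-1.16 to 0.62, 0.783). Without Carbidopa replicate 2 Hmox1 was called lower with LY-364747, at -0.55 (adjusted p = 0.00364, edgeR). A p above the threshold does not show that the compounds act alike.

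CHIR-99021 differed from Carbidopa in 3 of the 10 genes, where 14.7% of all genes were called in either direction, and from LY-364747 in the same 3, beside 14.1%. For Txnrd1 CHIR-99021 exceeded Carbidopa by 0.65 on the log2 scale (SE 0.10, adjusted p = 0.00192, edgeR) and LY-364747 by 0.71 (SE 0.10, 0.00113). For Hmox1 it exceeded them by 0.67 (SE 0.13, adjusted p = 0.00858) and by 1.04 (SE 0.13, 0.000855). Nfe2l2 itself was lower with CHIR-99021, at -0.55 (SE 0.09, adjusted p = 0.0037) against Carbidopa and -0.42 (SE 0.09, 0.0142) against LY-364747. Of the 3 compounds CHIR-99021 therefore had the lowest Nfe2l2 and the highest level of these 2 target genes. Both comparisons share the CHIR-99021 libraries.

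The Txnrd1 differences stayed called without any 1 library. Without CHIR-99021 replicate 1 the difference from Carbidopa was not called for Hmox1 (adjusted p = 0.103, edgeR) or Nfe2l2 (0.0511), which left 1 of the 10 genes, and without Carbidopa replicate 2 G6pdx was called too (-0.28, 0.0383). The Nfe2l2 difference from LY-364747 was not called when any 1 of the 4 libraries was left out (adjusted p 0.0762 to 0.143, edgeR), and the value stayed between -0.45 and -0.40.

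Within a library the number of Txnrd1 reads per Nfe2l2 read was 1.03 and 0.977 in MEFs, 0.936 and 0.960 with Carbidopa, and 0.922 and 1.07 with LY-364747. It was 2.26 and 2.10 with CHIR-99021, above all 6 other libraries, of which those of LY-364747 spanned the range and those of Carbidopa lay just below MEFs. Hmox1 reads per Nfe2l2 read were 1.54 and 1.48 in MEFs and 2.00 and 1.68 with CHIR-99021. They were 0.858 and 0.718 with Carbidopa and 0.635 and 0.705 with LY-364747, below all MEF and CHIR-99021 libraries.

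**Figure D4:**
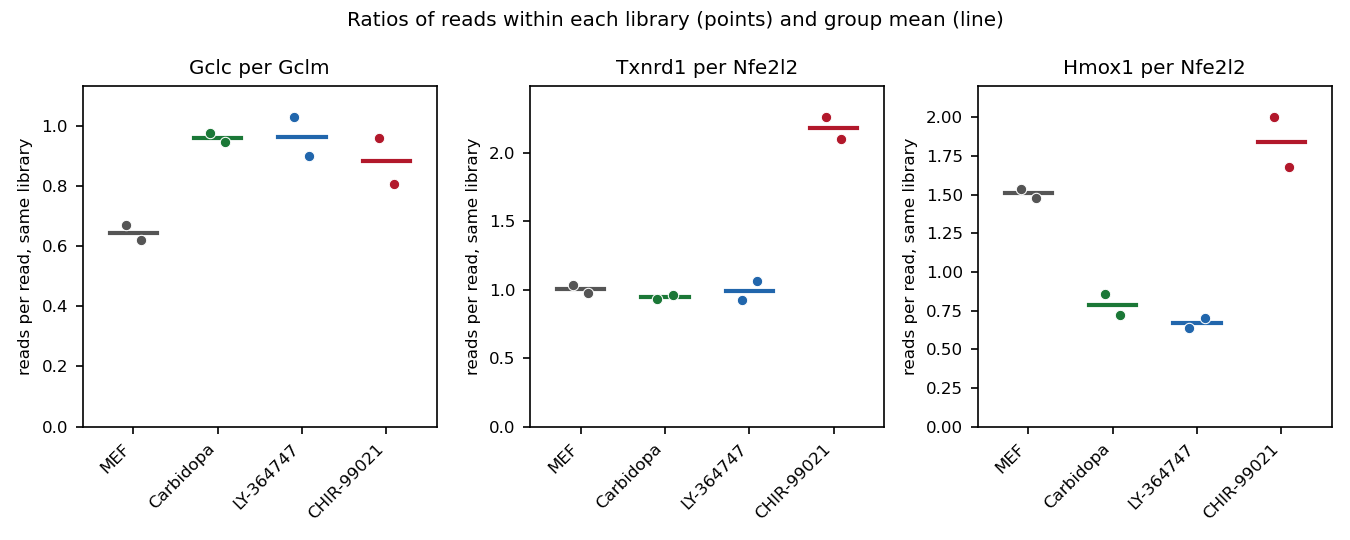
The vertical axes give reads of the first gene per read of the second in the same library for Gclc per Gclm, Txnrd1 per Nfe2l2 and Hmox1 per Nfe2l2, with 1 point per library and a line at each group mean. Gclc per Gclm is higher in all 6 treated libraries than in MEFs, and Txnrd1 per Nfe2l2 is above 2 with CHIR-99021 alone.

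Beyond the 10 genes, 23 of 26 further NRF2 target genes had enough reads to be tested. Gpx2 and Aldh3a1 had too few reads, and Trim16l was not listed under that symbol. Carbidopa raised 10 and lowered 2 of the 23, LY-364747 raised 7 and lowered 4, and CHIR-99021 raised 8 and lowered 5, with median log2 changes of 0.29, 0.20 and 0.23. The shares raised exceeded those of all genes (18.0%, 13.7% and 18.7%), while the shares lowered with LY-364747 and CHIR-99021 were near those of all genes (17.2% and 20.1%) and that with Carbidopa was below (19.7%). Nqo1, a quinone reductase widely used as a reporter of NRF2, had 22.1 and 18.2 CPM in MEFs, 48.4 and 50.0 CPM with Carbidopa, 51.1 and 42.8 CPM with LY-364747, and 39.5 and 43.3 CPM with CHIR-99021. Every treated library lay above MEFs, and the log2 change was 1.29, 1.22 and 1.04 (adjusted p = 4.12e-05, 6.43e-05 and 0.000189, edgeR).

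The glutathione transferase Gsta4 rose by 1.89, 1.53 and 1.24 (adjusted p = 1.15e-05, 6.04e-05 and 0.000261, edgeR). Gstm1, of another class of the same enzymes, rose by 1.24, 1.12 and 0.40 (adjusted p = 5.76e-06, 1.24e-05 and 0.00895). Osgin1, an oxidative stress-induced gene, rose by 1.44, 1.62 and 1.80 (adjusted p = 0.000663, 0.00031 and 0.000131). Taldo1, which codes for transaldolase of the pentose phosphate pathway, rose by 0.94, 0.68 and 1.02 (adjusted p = 0.000319, 0.00271 and 0.000178), while G6pdx of the same pathway did not rise in any test. Other targets of the list lay below both MEF libraries with some or all compounds. Fth1, a ferritin gene, had 2326 and 2248 CPM in MEFs, 2587 and 1880 CPM with Carbidopa, 1728 and 1781 CPM with LY-364747, and 1326 and 1234 CPM with CHIR-99021. Me1, Prdx1 and Ugdh lay below both MEF libraries in every treated library. Such a position is not a test. Of the 23 genes 4, 9 and 7 lay wholly below MEFs with Carbidopa, LY-364747 and CHIR-99021, where 2, 4 and 5 were called lower. The share of all genes that lay below both MEF libraries was not counted.

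Of 23 other antioxidant enzymes Carbidopa raised 8 and lowered 1, LY-364747 raised 6 and lowered 1, and CHIR-99021 raised 4 and lowered 3, with median log2 changes of 0.17, -0.02 and 0.03. Of all genes 18.0% and 19.7%, 13.7% and 17.2%, and 18.7% and 20.1% were higher and lower, so the shares raised with Carbidopa and LY-364747 were above those of all genes and that with CHIR-99021 was not. Prdx6, a peroxiredoxin that also repairs phospholipids, rose by 1.61, 1.44 and 1.32 (adjusted p = 1.99e-06, 4.35e-06 and 7.87e-06, edgeR). Gpx4, which reduces lipid hydroperoxides with glutathione, rose by 1.44, 1.11 and 1.13 (adjusted p = 0.000102, 0.000666 and 0.000513). Gpx8, a peroxidase of the endoplasmic reticulum, rose by 0.81, 0.59 and 0.71 (adjusted p = 0.00046, 0.00345 and 0.001). Sod1, the cytosolic superoxide dismutase, rose by 1.04, 0.69 and 0.65 (adjusted p = 0.00139, 0.0157 and 0.0171). Cat, which codes for catalase, rose by 0.37 with Carbidopa and 0.49 with LY-364747 (adjusted p = 0.0134 and 0.00326) and had -0.22 (0.0974) with CHIR-99021. Gpx4 was higher and Slc7a11 was lower in every treated library than in MEFs, and a link between them was not tested. Sod3, the extracellular superoxide dismutase, fell with CHIR-99021 to -1.78 (adjusted p = 8.05e-06), and had -0.01 (0.977) with Carbidopa and -0.23 (0.239) with LY-364747.

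**Figure D5:**
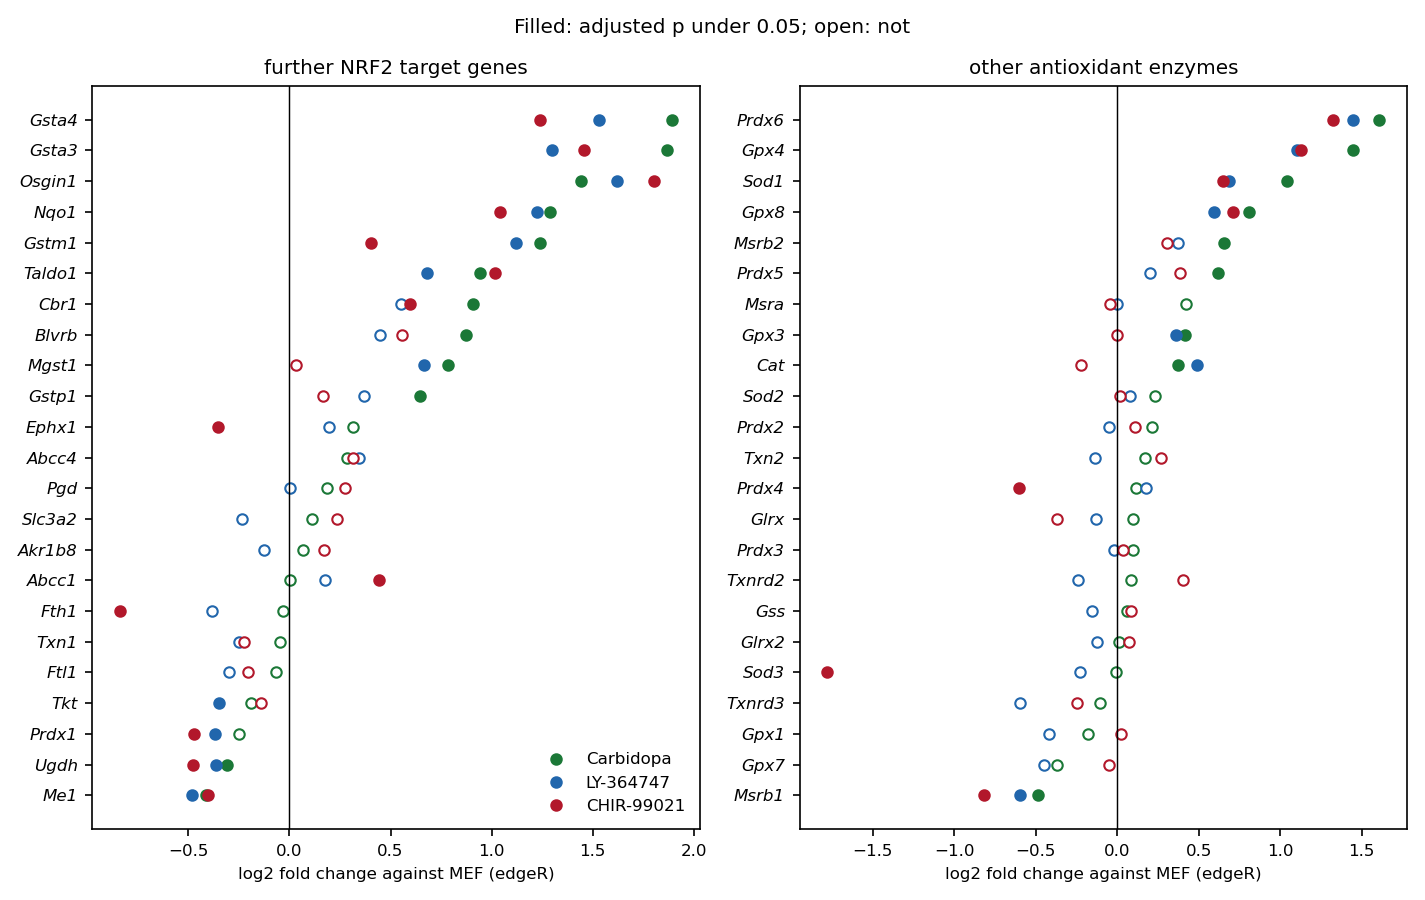
The horizontal axes give log2 fold changes against MEFs for 23 further NRF2 target genes (left) and 23 other antioxidant enzymes (right), ordered by the change with Carbidopa, in green, blue and red for Carbidopa, LY-364747 and CHIR-99021, and filled points passed the adjusted p of 0.05. Gsta4, Osgin1, Nqo1, Prdx6 and Gpx4 lie to the right with each compound. With CHIR-99021 Fth1 lies to the left and Sod3 far to the left.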

How the data were processed

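The deposited values are counts of reads per gene, whole numbers without normalization. The authors aligned reads to mm10 with STAR 2.4.2a and counted them with featureCounts. The annotation release and the strand setting are not given in the sources used here. The labels and the study's methods name different library kits. DESeq2 and bcl2fastq also stand in the submitters' processing notes.

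Groups and replicate numbers were taken from the sample titles. Counts were analysed in R 4.3.3 with edgeR 4.0.16 (TMM, filterByExpr, quasi-likelihood test, a single fit over the 8 libraries with a term for group), and p-values were adjusted by Benjamini-Hochberg over the 15154 genes tested. The coefficient of biological variation was 11.0%. The script was tested on simulated data. DESeq2 1.42.0, other scalings and filters, a replicate block and fits without each library were the alternatives. No pair of libraries differed by as little as sampling noise. The chi-square per degree of freedom between the libraries of a group was 4.31 in MEFs, 7.25 with LY-364747, 9.21 with CHIR-99021 and 34.6 with Carbidopa. The Carbidopa libraries therefore differed most from each other. Of the deposited identifiers, 99.6% were found in GENCODE M21 of GRCm38, from which positions and exon lengths were taken. Promoters are from RefSeq. The reads carried no molecular identifiers, so they are not independent molecules.

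The 10 genes, the other lists and the tests were chosen with earlier results of these data known. Genes named from the other lists are up to 4 per list and comparison with the smallest p among those called whose treated libraries did not overlap MEFs, and Slc3a2, Nqo1, Bach1, Gsk3b and Cul3 whatever their values. Atf4, Alas1, Blvrb, Txnrd2, Txnrd3, Txn1, Fth1, Me1, Prdx1 and Ugdh were added after their values were seen. So were values of a named gene with another compound. The markers of endothelial cells summed to 16.8 to 19.5 CPM in MEFs and 11.3 to 15.6 CPM in the treated libraries. Those of epithelial cells summed to 3.22 to 4.23 CPM in MEFs and 9.81 to 21.4 CPM in the treated libraries.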

Additional observations from a re-analysis of the deposited data

How the results depend on the processing

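No called value changed sign in any alternative. Of 680 values of single genes under the alternatives, 311 of them of genes called in the fit reported, 638 stayed on the same side of the threshold, 32 lost a call and 10 gained one. Keap1 with LY-364747 gained a call without the filter (0.52), under DESeq2 (0.50), in the fit of the compared groups (0.52), under total-count scaling (0.74) and under the replicate block (0.53). Gsr with LY-364747 lost its call under DESeq2 (adjusted p = 0.0565) and under the replicate block (0.0538), and G6pdx with CHIR-99021 without the filter (adjusted p = 0.161) and under the replicate block (0.0598).

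Genes called between LY-364747 and Carbidopa numbered 329 without the filter, 16 under DESeq2 and 0 in the fit of the compared groups, against 2 in the edgeR fit of all libraries. The fit of the compared groups called 1027 genes between CHIR-99021 and Carbidopa and 3673 between CHIR-99021 and LY-364747, against 2227 and 2143. It also lost Nfe2l2 between CHIR-99021 and Carbidopa (adjusted p = 0.0529). The cause was not tested.

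Leaving out 1 library at a time gave 3142 to 7996, 2841 to 3095 and 3433 to 4709 genes called against MEFs for Carbidopa, LY-364747 and CHIR-99021. It gave 2 to 3816 genes between LY-364747 and Carbidopa, 715 to 4632 between CHIR-99021 and Carbidopa, and 663 to 1200 between CHIR-99021 and LY-364747. Of the 10 genes it called 5 to 8, 4 to 5 and 6 to 7 against MEFs, and 0 to 1, 1 to 4 and 2 between the compounds in the same order. Such a fit leaves 1 library in a group, which is assumed to vary like the others.

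The deviations of same-numbered libraries were only weakly correlated between groups (r from -0.161 to 0.128). With 2 libraries per group, these values cannot decide whether the numbers pair the samples. The replicate block called 7, 6 and 8 of the 10 genes against MEFs and 0, 3 and 3 between the compounds, and 5473, 4424, 5722, 2, 2010 and 1973 of all genes in the same order. With the LY-364747 numbers crossed, an alternative chosen after seeing the data like the scaling by total counts, 2 genes were called against Carbidopa and 3029 between CHIR-99021 and LY-364747. With 2 libraries per group, changes of low genes such as Slc7a11 (32 to 150 reads) are known only to within their wide intervals.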

Other observations

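Over the 8 libraries the log2 CPM of each of the 10 genes was compared with those of all genes tested. The points share their group structure and libraries, so the correlations are a description and carry no p. The genes most like Nfe2l2 were Ifit2, Islr and Alpl (Pearson r = 0.996, 0.995 and 0.995, n = 8 libraries). Txnrd1 was most like Vsir, Plk2 and Angptl4 (r = 0.998, 0.998 and 0.997), and Srxn1 most like Urgcp, Tnfaip2 and Pde8b (r = 0.998 for each). Hmox1 was most like H13, Senp2 and Pwp2 (r = 0.996, 0.994 and 0.991). Gclc was most like Oxnad1, Ube2ql1 and Ddx25 (r = 0.992, 0.991 and 0.991), and Keap1 most like Naa10, Akap8l and Hspa1b (r = 0.991, 0.990 and 0.988). Slc7a11 was most like Inpp4b, Capn5 and Tmem39a (r = 0.992, 0.982 and 0.981), and G6pdx most like Gm4951, Ensa and Nuf2 (r = 0.986, 0.977 and 0.975).

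Gsr was most like Gsta3, Sumo3 and Tsc22d1 (r = 0.970, 0.969 and 0.968), of which Gsta3 is a glutathione transferase of the further NRF2 target list. Gclm was most like Vcp-rs, Gm6793 and Ung (r = 0.972, 0.926 and 0.903).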
